A study of Homo sapiens with 18 samples.

Results

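The regions described here are neighbouring stretches of the genome occupied by the serine 5-phosphorylated form of RNA polymerase II (Ser5 Pol II), with starts no more than 2000 bases apart. They were taken from a table of 12123 regions by position alone: a region on chromosomes 1 to 22 was kept where another region of the table started within 2000 bases of it. The rule kept 638 regions, 5.26% of the table, and used no count. They form 328 pairs of neighbours. Of the 638 regions, 590 stand in 295 isolated pairs, 39 in 13 groups of 3, 4 in 1 group of 4 and 5 in 1 group of 5. Because of these larger groups, 18 regions belong to 2 pairs each. The question is whether the 2 regions of a pair, called left and right by position, change together when the fusion protein PAX3-FOXO1 is degraded.

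RNA polymerase II (Pol II) carries a long repeated tail on its largest subunit. The tail is phosphorylated on serine 5 as transcription begins, so this form is found mostly near transcription start sites and at active enhancers. At many mammalian start sites Pol II begins in both directions, and the antibody signal then often shows a peak on each side of a gap depleted of nucleosomes. Closely spaced regions can also belong to separate start sites, to a start site and the body of the same gene, or to repeated sequence. PAX3-FOXO1 is the fusion transcription factor of alveolar rhabdomyosarcoma, a childhood tumour of cells with a skeletal muscle programme, and it acts largely at enhancers.

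Ser5 Pol II was measured by ChIP-seq, sequencing of DNA recovered with an antibody, in Rh30, an established alveolar rhabdomyosarcoma line. All cells, controls included, carried PAX3-FOXO1 with an FKBP tag. The control group received DMSO, the solvent, and the other 2 groups received 500 nM dTAG47, a small molecule that directs FKBP-tagged protein to degradation, for 2 h or 4 h. Each group has 2 libraries, 6 in all, and another 12 samples of the series, made with other antibodies, were not analysed here. Nothing in the labels says that the 2 libraries came from different cultures, or whether the tagged line is 1 clone. The p-values therefore measure the spread among these 6 libraries only, and that spread may be technical. The counts do not measure the fusion protein itself, so its loss is not checked here.

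Total counts per library ran from 962251 (4 h library B) to 1792013 (DMSO library A), and the median paired region had between 71 counts in the former and 134 in the latter. Across the paired regions the 2 libraries of a group correlated at Pearson's r of 0.953 to 0.968 in log2 CPM, a description of the libraries only. The following measure differed between libraries of the same treatment: the 3 highest regions of the table held, as a share of counts, 1.77% and 2.61% in DMSO, 2.61% and 3.21% at 2 h, and 2.61% and 4.17% at 4 h (libraries A and B). Levels below are TMM-scaled CPM, that is, counts set to a common library size, given for library A and then library B. This scale cannot show a change shared by all regions. Positions are those of the deposited table in hg19. Gene models for hg19 were not used here, so no region is tied to a gene, promoter or enhancer.

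Paired regions were found on each of the 22 chromosomes. Chromosome 2 held the most, 63 of its 958 regions. The share was highest on chromosome 18, where 14 of 143 regions (9.79%) were paired, and on chromosome 16, with 51 of 542 (9.41%). It was lowest on chromosome 3, with 18 of 609 (2.96%). The starts of a pair lay 597 to 1981 bases apart, with a median of 1120, and the nearest neighbours just outside the rule lay 2032 bases apart. The shortest distance is also the shortest in the whole table, so no 2 of the 400-base regions overlap. How regions were counted is not given, so whether the same fragment could count in both regions of a pair was not tested.

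Paired regions had somewhat higher signal than the others, with a median of 74.6 CPM over the 6 libraries. The 11485 regions not kept by the rule had a median of 63.6 CPM. They include regions on chromosomes outside the rule, where neighbours were not sought. The 2 regions of a pair were usually of similar height. In DMSO the stronger region exceeded the weaker by a median of 1.28-fold, and in 232 of 328 pairs by no more than 1.5-fold. Only 13 pairs differed more than 3-fold, the most unequal by 38.5-fold. The left region was the stronger in 161 pairs, close to an even split. Log2 levels of left and right regions correlated at Pearson's r of 0.67 across pairs (n = 328, Spearman's rho 0.691). The regions of a pair share libraries, depth and local sequence, so this value is given without a p.

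Some of the pairs lie next to long stretches of chromosome in which the table holds no region. In hg19 such stretches include the centromeres, whose repeated sequence is largely missing from the assembly, and gene-poor tracts. A region was counted as beside an empty stretch where it lay within 1 Mb of a stretch of at least 3 Mb with no region. There were 88 such stretches, and 31 of them had paired regions within that distance. Of the 907 regions beside an empty stretch 123 (13.6%) were paired, against 4.59% of regions elsewhere. The latter share also counts regions on chromosomes outside the rule, which could not be kept as paired. The 123 regions make up 67 pairs, and the other 515 regions make up 261 pairs.

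The 2 sets of pairs differed in how much their signal varied between libraries, including libraries of the same treatment. The 123 regions beside an empty stretch held 1.69% and 2.35% of all counts in the DMSO libraries, 2.25% and 2.74% at 2 h, and 2.26% and 3.37% at 4 h. Library B was the higher of each group, and these shares moved with the share of the 3 highest regions given above. Of those 3 regions, chr7:61968821-61969221 is also among the 123, so the shares partly hold the same counts and would move together for that reason alone. The paired regions elsewhere held 4.97% and 5.39% of counts in DMSO, 5.11% and 5.34% at 2 h, and 5.03% and 5.285% at 4 h. Library B was thus the higher there too, by less. Over the 6 libraries the median paired region elsewhere stayed between 75.6 and 80.8 CPM, and that beside an empty stretch between 48.6 and 61.6 CPM. Results are therefore given for both sets. The part of this library difference in the calls beside empty stretches was not tested.

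**Figure D1:**
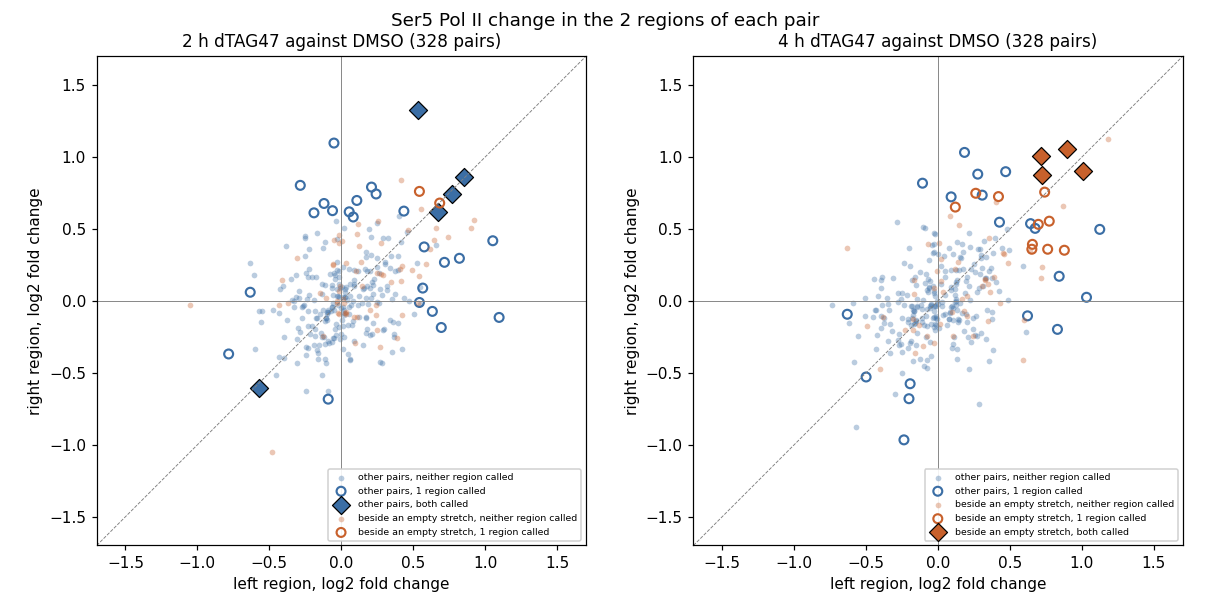
Each point is a pair: the log2 fold change of its left region against that of its right region, at 2 h (left panel) and 4 h (right panel) against DMSO, on equal axes with the diagonal dashed. Filled diamonds are pairs with both regions called (5 at 2 h and 4 at 4 h), open circles pairs with 1 called (25 and 29), and orange marks the 67 pairs beside an empty stretch, which hold all 4 diamonds at 4 h and none at 2 h.

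At 2 h, Ser5 Pol II fell at 5 of the 638 paired regions (0.784%) and rose at 29 (4.55%), in edgeR's quasi-likelihood test with Benjamini-Hochberg adjusted p under 0.05. Over all 12123 regions, 0.396% fell and 2.22% rose. The median log2 fold change was 0.02 in paired regions and -0.01 in all regions. In 5 pairs both regions were called in the same direction, 1 falling and 4 rising. In 25 pairs 1 region was called, in 298 neither, and in 0 were the regions called in opposite directions (141 members, 43 lower and 98 higher, had an unadjusted p under 0.05). The share of all regions under that unadjusted limit is not given here. All 5 pairs with both regions called lay away from empty stretches. The number of such pairs rested on single libraries: it was 2 without DMSO library A, 15 without DMSO library B, 3 and 2 without 2 h libraries A and B, and 8 without either 4 h library. The rises numbered 10 and 61 without DMSO libraries A and B, 12 without 2 h library B, and 44 and 45 without 4 h libraries A and B. The falls numbered 1 without DMSO library B, and 2 and 0 without 2 h libraries A and B. DESeq2 called 0 falls, 11 rises and 2 pairs on both sides.

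Of the 4 rising pairs, 3 lie on the short arm of chromosome 6, and they cover both an equal and an unequal rise. The pair chr6:26031978-26032378 and chr6:26033438-26033838, with starts 1460 bases apart, rose by the same factor on both sides. Its left region had 147 and 172 CPM in DMSO, 295 and 280 CPM at 2 h, and 245 and 253 CPM at 4 h. The right region, a weaker one, had 54.5 and 66.4 CPM in DMSO, 110 and 107 CPM at 2 h, and 87.6 and 86.3 CPM at 4 h. In both regions the treated libraries stood above both DMSO libraries at each time. The log2 fold changes at 2 h were 0.85 (SE 0.15, edgeR adjusted p = 0.000121) and 0.86 (SE 0.15, edgeR adjusted p = 0.000226). The left region held 72.6% ± 0.614 of the pair's signal in DMSO and 72.6% ± 0.358 at 2 h (SD, n = 2 each). At 4 h the left region was still called, at 0.64 (adjusted p = 0.00954), and the right was not, at 0.54 (adjusted p = 0.0694).

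The pair chr6:26197152-26197552 and chr6:26199004-26199404, with starts 1852 bases apart, rose on both sides but by different amounts. Its left region had 83.7 and 90.3 CPM in DMSO, 115 and 137 CPM at 2 h, and 130 and 107 CPM at 4 h. Its right region went from 50.2 and 60.9 CPM in DMSO to 145 and 131 CPM at 2 h, and stood at 101 and 106 CPM at 4 h. The right region was thus the weaker of the 2 in both DMSO libraries, and at 2 h it was the stronger in library A and the weaker in library B. At 2 h its log2 fold change of 1.32 (SE 0.15, edgeR adjusted p = 3.45e-08) was the largest of all paired regions, against 0.54 on the left (SE 0.15, edgeR adjusted p = 0.0373). The difference of 0.79 between them passed its own test (SE 0.21, adjusted p = 0.00576, edgeR interaction test over 328 pairs). At 4 h the right region was still called, at 0.90 (adjusted p = 0.000412), and the left was not, at 0.47 (adjusted p = 0.107). The left region's call at 2 h ended without DMSO library A (0.48, adjusted p = 0.198), without 2 h library B (0.41, adjusted p = 0.365), with total count scaling (adjusted p = 0.0973) and with DESeq2 (adjusted p = 0.342).

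The third pair of that arm, chr6:27839809-27840209 and chr6:27840977-27841377, had starts 1168 bases apart and rose evenly. Its left region had 84.2 and 103 CPM in DMSO, 139 and 157 CPM at 2 h, and 147 and 150 CPM at 4 h. Its right region had 104 and 123 CPM in DMSO, 176 and 170 CPM at 2 h, and 171 and 146 CPM at 4 h. Treated and DMSO libraries did not overlap in either region. The log2 fold changes at 2 h were 0.67 and 0.62 (SE 0.15 each, edgeR adjusted p = 0.00437 and 0.00961), and the regions' difference of -0.05 did not pass its test (SE 0.19, adjusted p = 0.968). Both calls ended without DMSO library A (0.53 and 0.49, adjusted p = 0.112 and 0.154) and without 2 h library B (0.59 and 0.65, adjusted p = 0.1 and 0.0517).

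On chromosome 1, chr1:23883243-23883643 and chr1:23885159-23885559, with starts 1916 bases apart, rose together at 2 h. The left region had 106 and 159 CPM in DMSO, 235 and 214 CPM at 2 h, and 167 and 189 CPM at 4 h. The right region had 152 and 181 CPM in DMSO, 272 and 285 CPM at 2 h, and 223 and 266 CPM at 4 h. On both sides the 2 h libraries were the highest of the 6. The log2 fold changes at 2 h were 0.77 (SE 0.16, edgeR adjusted p = 0.00138) and 0.74 (SE 0.15, edgeR adjusted p = 0.0013). At 4 h they were 0.43 (adjusted p = 0.191) and 0.55 (adjusted p = 0.0409), so the call remained on the right only. The left region's 2 h call ended without DMSO library A, the lowest of its 6 values (0.50, adjusted p = 0.139).

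The only pair in which both regions fell, chr6:94126666-94127066 and chr6:94128417-94128817, lies on the long arm of chromosome 6 with starts 1751 bases apart. Its left region had 90.7 and 101 CPM in DMSO, 64.2 and 64.6 CPM at 2 h, and 69.3 and 65.0 CPM at 4 h. Its right region had 157 and 183 CPM in DMSO, 110 and 112 CPM at 2 h, and 128 and 103 CPM at 4 h. All treated libraries lay below both DMSO libraries on both sides. The left region fell by 0.57 on the log2 scale at 2 h (SE 0.15, edgeR adjusted p = 0.0273) and the right region fell by 0.61 (SE 0.15, edgeR adjusted p = 0.0102). The left region's share of the pair was 36.1% ± 0.781 in DMSO, 36.7% ± 0.115 at 2 h and 36.9% ± 2.45 at 4 h (SD, n = 2 each). Neither 2 h call held when DMSO library B was left out (-0.48 and -0.49, adjusted p = 0.129 and 0.0676). The same was so for 2 h library A (adjusted p = 0.193 and 0.12) and 2 h library B (adjusted p = 0.155 and 0.0933), with the sign kept each time.

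At 4 h, 5 paired regions fell (0.784%) and 28 rose (4.39%), against 0.487% and 1.52% of all 12123 regions (edgeR adjusted p under 0.05). In 4 pairs both regions were called, all of them rises. In 29 pairs 1 region was called, in 295 neither, and in 0 were the calls opposite (145 members, 46 lower and 99 higher, had an unadjusted p under 0.05). For all regions the number under that limit is again not given. The 4 pairs with both regions called all lay beside an empty stretch, and in none of the 261 pairs elsewhere were both regions called. Beside empty stretches 15 of 123 paired regions rose (12.2%) and 0 fell, with a median log2 fold change of 0.20. Elsewhere 13 of 515 rose (2.52%) and 5 fell, with a median of -0.03. At 2 h the order was the other way, with 2 of 123 rising beside empty stretches (1.63%) and 27 of 515 elsewhere (5.24%).

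The 3 highest regions all lie beside an empty stretch, and 1 of them, chr7:61968821-61969221, is a paired region. Their share averaged 2.19% in DMSO, 2.91% at 2 h and 3.39% at 4 h (n = 2 each). The groups came together at 2.61%, the share in DMSO library B, 2 h library A and 4 h library A. Whether the share moved with the treatment was not tested. A fit with this share as a covariate takes up part of any change that regions beside empty stretches have in common, whatever its source. A call lost there does not show whether it followed the treatment or the library. In that fit 0 of the 15 rises beside empty stretches at 4 h were still called, and 9 of the 13 elsewhere were. At 2 h it kept 0 of 2 and 25 of 27. The pairs called on both sides at 2 h were the same 5 with and without it. At 4 h 5 pairs were called on both sides with it, none of them among the 4 above. The 2 rising ones were the pair chr6:27839809-27840209 and chr6:27840977-27841377 (0.56 and 0.57, adjusted p = 0.0485 and 0.0241) and the pair starting at 28889821 on chromosome 16 (0.87 and 0.56, adjusted p = 0.00111 and 0.0425), each with 1 region called in the fit without it. The 3 falling ones, whose left regions are chr5:177541036-177541436, chr16:33964743-33965143 and chr21:9825380-9825780, had no region called without it. The split of calls moved with it: rises made up 85.3% of the called members at 2 h and 84.8% at 4 h, and 60.8% and 38.2% with the covariate. Total count scaling gave 75.9% and 70%. It also moved the median log2 fold change of all regions by -0.06 at 2 h and -0.05 at 4 h. The rises at 4 h rested on single libraries as well, with 9 called without DMSO library A, 61 without DMSO library B, 51 without 4 h library A and 11 without 4 h library B. The pairs called on both sides numbered 0, 15, 13 and 0 in that order. The falls at 4 h numbered 2 without DMSO library B, 8 without 2 h library A, 2 without 4 h library A and 1 without 4 h library B. DESeq2 gave no adjusted p for 255 members at 4 h, and it called 0 falls, 6 rises and 0 pairs on both sides. As at 2 h, calls over all regions under these alternatives are not given.

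The 4 pairs called on both sides at 4 h share a pattern over the 6 libraries. The pair chr18:18517146-18517546 and chr18:18518823-18519223 is among those with the highest signal of all. Its left region had 122 and 168 CPM in DMSO, 198 and 265 CPM at 2 h, and 228 and 359 CPM at 4 h. Its right region had 825 and 1374 CPM in DMSO, 1593 and 1926 CPM at 2 h, and 1534 and 2590 CPM at 4 h. Library B was above library A in each group on both sides, and 4 h library B was the highest of the 6. The log2 fold changes at 4 h were 1.00 (SE 0.17, edgeR adjusted p = 2e-04) and 0.91 (SE 0.22, edgeR adjusted p = 0.0129). With the covariate they were 0.44 and 0.23, and neither was called (adjusted p = 0.0897 and 0.295). Without DMSO library A, and without 4 h library B, only the left region was called.

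In the pair chr10:42399181-42399581 and chr10:42400164-42400564 the groups overlapped on the left. That region had 260 and 469 CPM in DMSO, 453 and 606 CPM at 2 h, and 444 and 756 CPM at 4 h, so that 4 h library A lay below DMSO library B. The right region had 149 and 230 CPM in DMSO, 278 and 361 CPM at 2 h, and 280 and 487 CPM at 4 h, with no overlap. Their log2 fold changes at 4 h were 0.72 (SE 0.20, edgeR adjusted p = 0.0451) and 1.01 (SE 0.19, edgeR adjusted p = 0.000603). With the covariate the left value was -0.02 (adjusted p = 0.979) and the right 0.31 (adjusted p = 0.261). Within the same part of chromosome 10, 3 further paired regions rose at 4 h, at 42387104 (0.66), 42391501 (0.70) and 42529390 (0.76), each with 1 region of its pair called.

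Both remaining pairs lie on chromosome 16. The pair chr16:33974180-33974580 and chr16:33975458-33975858 had low counts: its right region had 19.4 and 30.8 CPM in DMSO, 35.6 and 53.2 CPM at 2 h, and 35.3 and 74.6 CPM at 4 h. The left region had 39.4 and 69.8 CPM in DMSO, 58.0 and 85.1 CPM at 2 h, and 65.5 and 147 CPM at 4 h, and 4 h library A again lay below DMSO library B. The log2 fold changes at 4 h were 0.90 on the left and 1.06 on the right (edgeR adjusted p = 0.0208 and 0.0232), and -0.07 and 0.18 with the covariate (adjusted p = 0.941 and 0.863). The pair chr16:46389593-46389993 and chr16:46391153-46391553 is part of the group of 5 regions. Its log2 fold changes were 0.73 and 0.88 (edgeR adjusted p = 0.0111 and 0.0044), and 0.19 and 0.24 with the covariate (adjusted p = 0.613 and 0.512). On both sides 4 h library B was the highest, with 349 and 308 CPM, and DMSO library A the lowest, with 142 and 94.0 CPM.

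**Figure D2:**
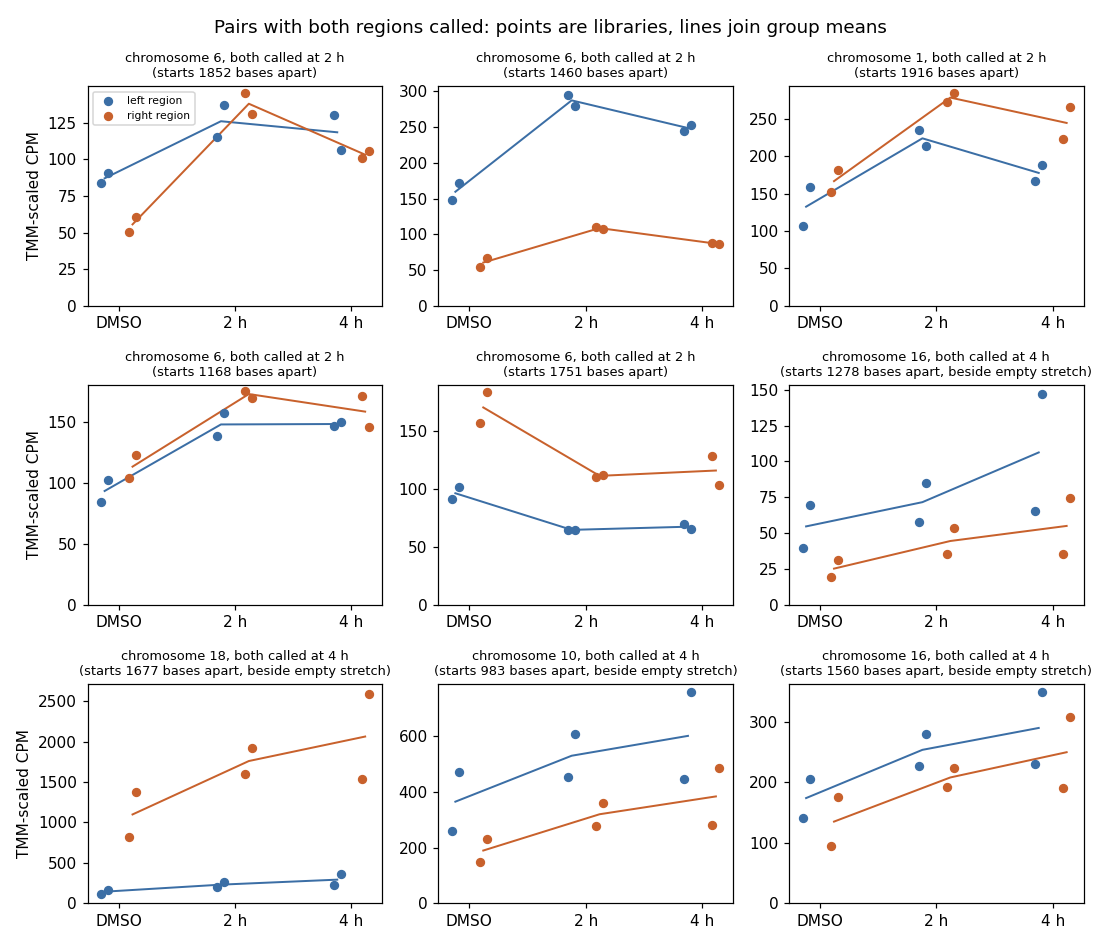
CPM of the left (blue) and right (orange) region in each library for the 9 pairs with both regions called at 2 h or at 4 h, on linear axes from 0, with lines through group means. The 5 pairs called at 2 h were chosen by that comparison, and their 2 h libraries do not overlap the DMSO libraries. In the 4 pairs beside an empty stretch library B exceeds library A in each group, as with 1534 and 2590 CPM at 4 h on chromosome 18.

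In most pairs with a call, only 1 region was called, which does not by itself show that the other region behaved differently. At 2 h the partners of the 22 single rises had a median log2 fold change of 0.09, between -0.29 and 0.68, and 13 of 22 were above 0. At 4 h the partners of the 24 single rises had a median of 0.36, between -0.20 and 0.74, and 21 of 24 were above 0. Away from empty stretches the medians were 0.07 (11 of 20 above 0) at 2 h and 0.23 (11 of 14) at 4 h. The 3 single falls at 2 h had partners with a median of -0.09, 2 of them below 0. The 5 at 4 h had partners with a median of -0.20, all 5 below 0. The 2 times share their DMSO libraries, so their values are not independent of each other.

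The difference between the 2 regions of a pair was therefore tested itself, as an interaction in edgeR that compares left and right counts within each library, so that library scaling drops out. At 2 h 24 of 328 pairs (7.32%) differed at an adjusted p under 0.05, and 66 at an unadjusted p under 0.05. At 4 h 13 pairs (3.96%) differed, and 47 without adjustment. Of the 24 pairs, 17 had fold changes of opposite sign in the 2 regions and 7 of the same sign, and 12 had 1 region called, 1 had both and 11 had neither. The differences at 2 h ran from 0.29 to 1.20 on the log2 scale, with a median of 0.70. All 24 pairs had a difference in the same direction at 4 h, and 7 passed the test there too. Both times are set against the same DMSO libraries, which favours such agreement in pairs chosen at 2 h. It is therefore no independent repeat of the 2 h result. The numbers were lower with fewer libraries: 3 pairs at 2 h without 2 h library A and 12 without 2 h library B, 11 without DMSO library B and 9 without either 4 h library, and at 4 h 7 without 4 h library A and 3 without 4 h library B. Of these pairs, 21 at 2 h and 10 at 4 h lay away from empty stretches. Refitted on the 261 pairs there alone, the test called 23 pairs at 2 h, all of the 21 among them, and 5 of the 10 at 4 h.

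The clearest difference was in a group of 3 regions on chromosome 11, where the middle region rose between 2 regions that were not called. The middle region, chr11:65266337-65266737, had 55.6 and 74.6 CPM in DMSO, 141 and 135 CPM at 2 h, and 136 and 127 CPM at 4 h. To its left, chr11:65265653-65266053 had 60.5 and 80.8 CPM in DMSO, 64.9 and 69.9 CPM at 2 h, and 68.7 and 94.8 CPM at 4 h. To its right, chr11:65267840-65268240 had 77.8 and 129 CPM in DMSO, 84.5 and 104 CPM at 2 h, and 97.7 and 112 CPM at 4 h. In the middle region all treated libraries stood above both DMSO libraries, and in both flanking regions the groups overlapped. The middle region rose by 1.10 on the log2 scale at 2 h (SE 0.16, edgeR adjusted p = 3.19e-06) and 1.03 at 4 h (SE 0.16, edgeR adjusted p = 2.39e-05). At 2 h the left region differed from it by 1.15 (SE 0.22, adjusted p = 3.44e-05) and the right by 1.20 (SE 0.21, adjusted p = 2.31e-06). At 4 h the differences were 0.86 (adjusted p = 0.00518) and 1.00 (adjusted p = 0.000156), the latter not called without 4 h library A (0.83, adjusted p = 0.139). The middle region's share of its signal with the right one went from 39.1% ± 3.62 in DMSO to 59.5% ± 4.36 at 2 h and 55.6% ± 3.52 at 4 h (SD, n = 2 each).

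On chromosome 9, chr9:140134871-140135271 and chr9:140135579-140135979, only 708 bases apart, also parted. The left region had 145 and 143 CPM in DMSO, 140 and 125 CPM at 2 h, and 129 and 144 CPM at 4 h. The right region had 250 and 248 CPM in DMSO, 395 and 402 CPM at 2 h, and 403 and 300 CPM at 4 h. The left values overlapped between DMSO and 4 h, and the right values did not. The right region rose by 0.68 at 2 h (SE 0.15, edgeR adjusted p = 0.00638), and its value of 0.51 at 4 h was not called (adjusted p = 0.0802). The regions' difference passed at both times, at 0.80 (SE 0.16, adjusted p = 4.85e-05) and 0.62 (adjusted p = 0.00518).

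A pair can also differ with neither region called. In chr20:48599397-48599797 and chr20:48600575-48600975 the left region had 235 and 208 CPM in DMSO, 300 and 296 CPM at 2 h, and 284 and 233 CPM at 4 h. The right region had 94.5 and 110 CPM in DMSO, 74.0 and 88.2 CPM at 2 h, and 75 and 95.9 CPM at 4 h. The left region was thus higher at 2 h than in DMSO and the right region lower, each with no overlap, at log2 fold changes of 0.42 and -0.33 (edgeR adjusted p = 0.119 and 0.305). Their difference of -0.75 at 2 h passed (SE 0.18, adjusted p = 0.00214), and that of -0.52 at 4 h did not (adjusted p = 0.0777). It was not called at 2 h without DMSO library B (-0.57, adjusted p = 0.112) or without 2 h library A (-0.62, adjusted p = 0.224).

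Among pairs with 1 region called, the largest change at 4 h was at chr16:28889821-28890221, whose neighbour chr16:28891176-28891576 starts 1355 bases away. The left region had 54.5 and 58.2 CPM in DMSO, 105 and 129 CPM at 2 h, and 111 and 139 CPM at 4 h. The right region had 110 and 93.8 CPM in DMSO, 133 and 141 CPM at 2 h, and 147 and 142 CPM at 4 h. Both regions had all treated libraries above both DMSO libraries, and only the left was called, at 1.05 (SE 0.16, edgeR adjusted p = 1.6e-05) and 1.12 (SE 0.16, edgeR adjusted p = 6.7e-06). The right region had 0.42 (adjusted p = 0.118) and 0.50 (adjusted p = 0.0617). Their difference of -0.63 passed at 2 h (SE 0.21, adjusted p = 0.0365), and that of -0.62 at 4 h did not (adjusted p = 0.055).

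Other single calls were smaller or rested on fewer libraries. In chr10:32293057-32293457 and chr10:32294082-32294482 the left region rose at both times (0.82 and 0.84, edgeR adjusted p = 0.00186 and 0.00242), from 54.5 and 57.5 CPM in DMSO to 110 and 86.7 CPM at 2 h and 84.4 and 123 CPM at 4 h. Its neighbour had 0.30 and 0.17, and the differences did not pass (adjusted p = 0.182 and 0.0859), so these 2 regions were not shown to differ. The left region's call at 2 h ended without 2 h library A (0.63, adjusted p = 0.107) and with DESeq2 (adjusted p = 0.0685). In chr17:5674417-5674817 and chr17:5675506-5675906 the right region rose at 2 h from 35.6 and 37.0 CPM to 65.6 and 60.8 CPM (0.80, adjusted p = 0.0073), while the left had 51.8 and 47.2 CPM in DMSO and 37.7 and 44.1 CPM at 2 h. The difference of 1.09 passed (SE 0.29, adjusted p = 0.0067). The rise was not called without DMSO library A (0.78, adjusted p = 0.0693) or without 2 h library A (0.75, adjusted p = 0.12).

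A further 2 pairs were among the lowest p-values or largest single changes at 4 h. In chr16:30886424-30886824 and chr16:30887178-30887578, 754 bases apart, the right region rose from 45.4 and 41.7 CPM in DMSO to 68.7 and 89.5 CPM at 4 h (0.82, SE 0.18, edgeR adjusted p = 0.00537). The left region had 147 and 111 CPM in DMSO and 133 and 104 CPM at 4 h, and the difference was 0.92 (SE 0.22, adjusted p = 0.00273). That difference was not called without DMSO library A (0.75, adjusted p = 0.174) or 4 h library B (0.62, adjusted p = 0.294). In chr12:104850656-104851056 and chr12:104852098-104852498 the right region fell by 0.97 at 4 h (SE 0.27, edgeR adjusted p = 0.0487), from 32.4 and 49.95 CPM to 18.9 and 23.4 CPM. The call ended without DMSO library B (-0.63, adjusted p = 0.404), without 4 h library A (-0.79, adjusted p = 0.293) and without 4 h library B (-1.09, adjusted p = 0.0761), and the difference between its regions did not pass (adjusted p = 0.231).

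The other falls were single regions of a pair. At 2 h they were chr16:79633788-79634188 (-0.78, edgeR adjusted p = 0.0102), chr15:101791243-101791643 (-0.63, adjusted p = 0.0236) and chr1:1168370-1168770 (-0.68, adjusted p = 0.00455). The last had 119 ± 16.8 CPM in DMSO, 73.5 ± 1.77 at 2 h and 78.1 ± 8.03 at 4 h (SD, n = 2 each), and it was called at 4 h too (-0.58, adjusted p = 0.0291). At 4 h alone, chr12:89745471-89745871 (-0.63, adjusted p = 0.00932) and chr4:2538790-2539190 (-0.68, adjusted p = 0.0459) fell. In all, 2 of the 8 regions that fell at either time and 14 of the 43 that rose were called at both. The same counts over all regions are not given here, and both times share their DMSO libraries. These falls were named after their values were seen.

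Beside empty stretches, 3 pairs differed between their regions at both times, and each held strong signal. In chr7:61968821-61969221 and chr7:61970180-61970580, the strongest pair of all, the left region had 5248 and 7985 CPM in DMSO, 8309 and 10270 CPM at 2 h, and 8255 and 13640 CPM at 4 h. The right region had 284 and 404 CPM in DMSO, 347 and 451 CPM at 2 h, and 329 and 484 CPM at 4 h, so both varied with the library, the left more steeply. Neither was called, and the difference was -0.29 at 2 h (SE 0.09, adjusted p = 0.0335) and -0.47 at 4 h (SE 0.09, adjusted p = 9.93e-05). In chr11:51579395-51579795 and chr11:51580359-51580759 the left region's share fell from 64.9% ± 1.42 in DMSO to 57.8% ± 1.09 at 2 h and 56.9% ± 0.998 at 4 h (SD, n = 2 each), with differences of 0.43 and 0.49 (adjusted p = 0.00186 and 0.000156). In chr16:33963020-33963420 and chr16:33964743-33965143 the left region's share went from 39.5% ± 2.95 to 49.2% ± 0.627 and 52.1% ± 2.01, with differences of -0.56 and -0.73 (adjusted p = 0.00448 and 9.93e-05). At 4 h none of the 3 was called without 4 h library B (adjusted p = 0.0774 each). The chromosome 11 difference at 2 h was not called without 2 h library A (0.39, adjusted p = 0.224) or 2 h library B (0.48, adjusted p = 0.0501).

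**Figure D3:**
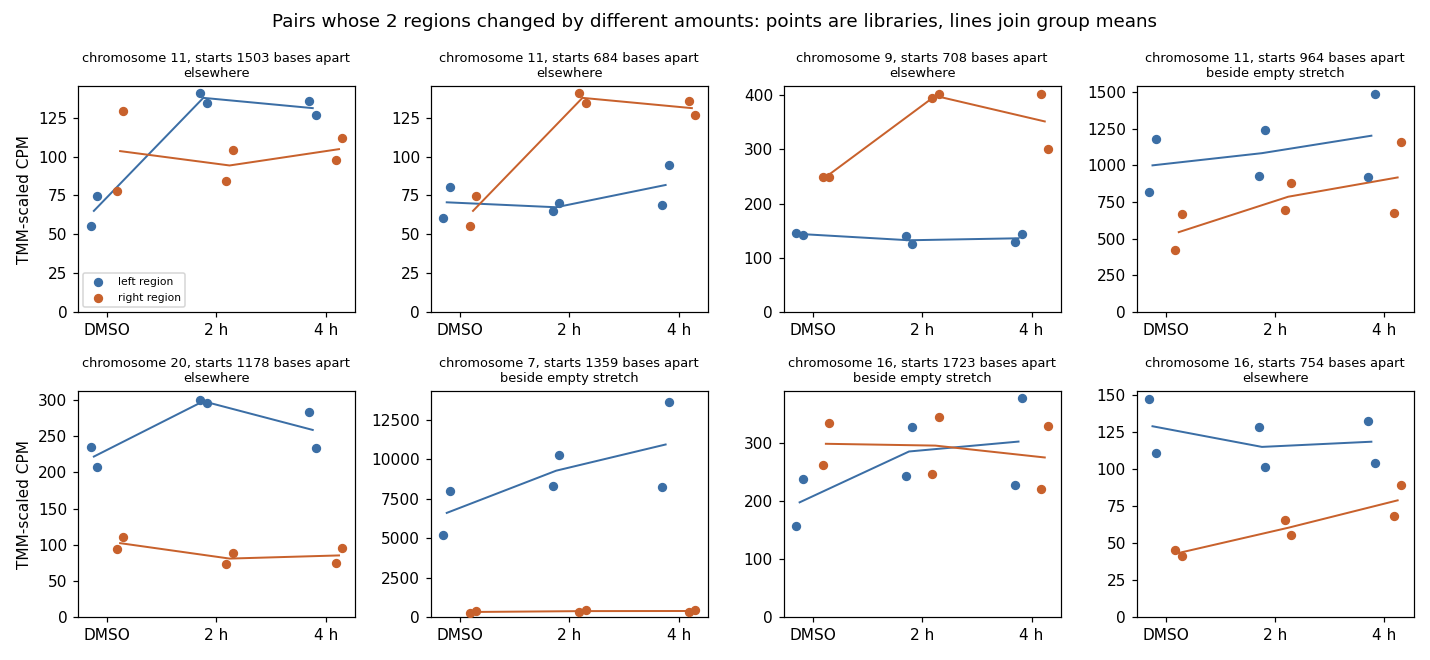
CPM of the left (blue) and right (orange) region in each library for the 8 pairs with the lowest p-values in the test of the difference at 2 h or 4 h, on linear axes from 0, with lines through group means. The first 2 panels share the middle region of the chromosome 11 group, which rises from 55.6 and 74.6 CPM in DMSO to 141 and 135 CPM at 2 h beside neighbours that stay between 60.5 and 129 CPM over all libraries.

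Across all 328 pairs, the log2 fold changes of left and right regions correlated at Pearson's r of 0.366 at 2 h (rho 0.332) and 0.479 at 4 h (rho 0.432). At 2 h r was 0.186 without DMSO library A, and at 4 h it was 0.301 without DMSO library A and 0.293 without 4 h library B. With the covariate described above it was 0.195 and 0.229. The signs matched in 197 pairs (60.1%) at 2 h and 217 (66.2%) at 4 h. Away from empty stretches r was 0.306 and 0.349 (n = 261), and beside them 0.479 and 0.617 (n = 67). These are descriptions across pairs, whose regions share libraries. The same correlation taken between 2 libraries of 1 treatment, where no treatment effect can enter, was 0.313 for DMSO, 0.196 for 2 h and 0.379 for 4 h over all pairs, and 0.168, -0.003 and 0.202 away from empty stretches. With the left region's change taken from libraries A and the right region's from libraries B, or the reverse, the 2 h values over all pairs were 0.25 and 0.315. The 4 h values were 0.412 and 0.329. Away from empty stretches they were lower, at 0.213 and 0.277 for 2 h and 0.282 and 0.221 for 4 h. The change of 1 region in libraries A against the same region's in libraries B gave 0.561 at 2 h and 0.572 at 4 h over all pairs. Away from empty stretches it gave 0.562 and 0.515.

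Beyond 20 kb neighbours changed less alike than paired regions did, while the classes from 2 to 20 kb lay between, with no steady order at 2 h. Away from empty stretches, r at 2 h was 0.306 up to 2 kb, 0.184 at 2 to 5 kb (n = 195), 0.206 at 5 to 20 kb (n = 1752), 0.129 at 20 to 100 kb (n = 4195) and 0.028 beyond (n = 4419). At 4 h it was 0.349, 0.322, 0.251, 0.12 and 0.013 in that order. Correlations between libraries of 1 treatment were higher at 2 to 5 kb than within pairs, at 0.327 for DMSO, 0.222 for 2 h and 0.438 for 4 h.

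Within the 2 kb limit the order ran the other way. Pairs with starts up to 1000 bases apart had r of 0.185 at 2 h and 0.37 at 4 h (n = 118), those over 1000 and up to 1500 bases 0.339 and 0.456 (n = 142), and those over 1500 bases 0.592 and 0.604 (n = 68). Away from empty stretches the values at 2 h were 0.052, 0.344 and 0.585 (n = 98, 113 and 50), and at 4 h 0.193, 0.376 and 0.523. The classes also differed in depth, with a median of 95.3, 115 and 143 counts per region, and in the SD of the log2 fold changes at 2 h, 0.29, 0.30 and 0.37. The part of depth in this order was not tested. Of the 5 pairs with both regions called at 2 h, 3 had starts over 1500 bases apart and none 1000 or less.

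**Figure D4:**
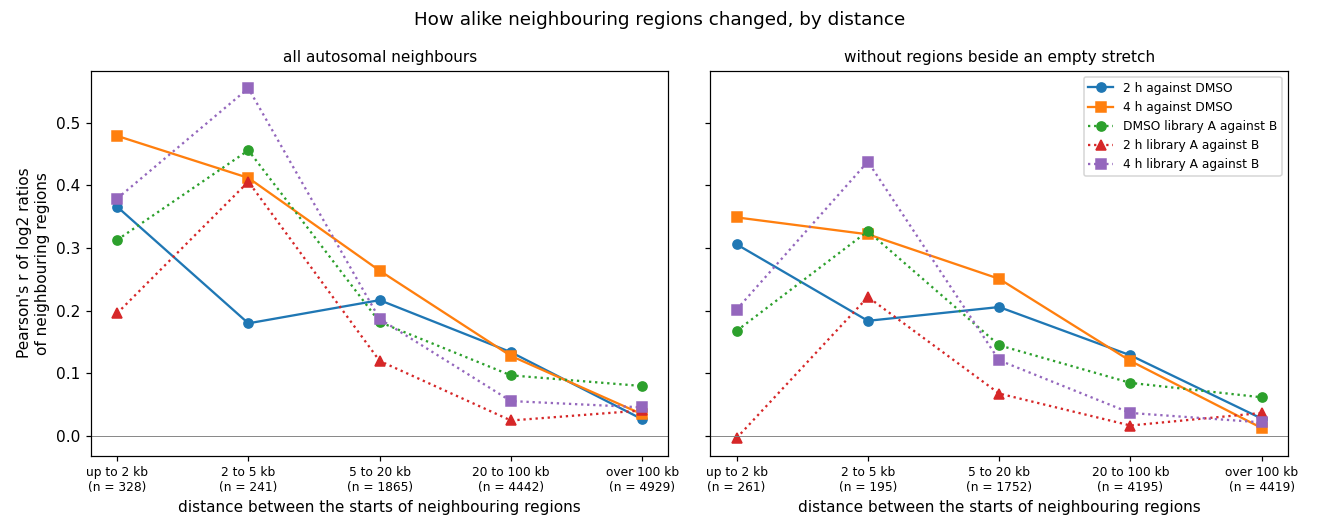
Pearson's r of the log2 ratios of neighbouring regions by the distance between their starts, for 2 h and 4 h against DMSO (solid lines) and between the 2 libraries of each treatment (dotted lines), with all autosomal neighbours on the left and without regions beside an empty stretch on the right. Within 2 kb on the right the treatment values are 0.306 and 0.349 and the values between libraries -0.003 to 0.202, and beyond 100 kb all are under 0.1.

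Set against 2 h directly, 4 h gave 0 calls among the 638 paired regions and 0 (0%) among all 12123 in edgeR, with a lowest adjusted p of 0.998 in the paired regions. An unadjusted p under 0.05 was found at 26 of the 638 paired regions in edgeR, 22 lower and 4 higher at 4 h. It was found at 27 with limma-voom and 4 with DESeq2. The share of all regions under that limit is not given, so these counts are not read as a trait of paired regions. The pair-difference test called 0 of 328 pairs, with 13 under 0.05 without adjustment. The lowest unadjusted p belonged to chr9:38068943-38069343, which had 66.3 and 61.6 CPM at 2 h and 46.6 and 34.1 CPM at 4 h (-0.62, SE 0.19). Next came chr20:62257709-62258109 (-0.48, SE 0.15) and chr5:172742549-172742949 (-0.48, SE 0.15), the latter with 129 and 113 CPM at 2 h against 82.5 and 93.8 CPM at 4 h. All 3 had an adjusted p of 0.998. Without 4 h library A, 1 paired region was called, chr16:33974180-33974580 (1.05, adjusted p = 0.000771).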

How the data were processed

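The authors deposited raw read counts per region for the 6 Ser5 Pol II ChIP-seq libraries. Per the submitters' processing notes, which give no roles, the tools include Bowtie2, Trimmomatic 0.32, DiffBind, MACS2 and DESeq2, and the builds are hg19 and dm3. The sources used here do not give how regions were called and counted, or whether positions count from 0 or 1. Columns carry the treatment and a letter that the labels do not tie to a replicate number. Counts were tested with edgeR 4.0.16 in R 4.3.3 (TMM factors, quasi-likelihood test, all 6 libraries in 1 fit, Benjamini-Hochberg over 12123 regions). filterByExpr removed 0 regions. The difference within a pair was an edgeR interaction over 12 count columns with a term for each library, adjusted over 328 pairs. SE is the effect divided by the square root of F. Both tests were also run on simulated counts in which regions varied independently. Those counts lacked the shared variation of neighbouring regions and of library letters seen in the data, so they do not show how the tests behave under it. For each time the text names up to 10 pairs with both regions called, the 5 lowest p-values of the difference and the 5 largest single calls, besides the 5 pairs with the highest summed CPM and the 3 lowest p-values of 4 h against 2 h. The members and lists were chosen with earlier results of these data known. Planned gene lists were not run for want of hg19 gene models here. Alternatives used limma 3.58.1, DESeq2 1.42.0, other scalings, members and left-out libraries. The empty-stretch rule, the covariate and the split by library letter were chosen after seeing the data.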

Additional observations from a re-analysis of the deposited data

How the results depend on the processing

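The counts of called paired regions depended on the settings. Calls over all regions under each setting are not given here, so these shifts are not shown to be particular to paired regions. With DESeq2, which gave no adjusted p for 339 and 255 members at 2 h and 4 h, 0 members fell and 11 rose at 2 h, with 2 pairs called on both sides, and 0 fell and 6 rose at 4 h, with 0 such pairs. Libraries of the same letter deviated from their group means together, at correlations of 0.219, 0.279 and 0.158, but the labels do not say that a letter marks a shared culture or day, and with 2 letters the pairing was not taken as given. A replicate block by column letter gave 16 falls, 81 rises and 15 pairs called on both sides at 2 h, 18, 69 and 18 at 4 h, and 28 pairs with a difference at 4 h, and it kept each member call made without it. The covariate for the 3 highest regions gave 20 falls at 2 h, 21 falls and 13 rises at 4 h, and within-pair r of 0.195 and 0.229. It turned the 4 h log2 fold changes of chr10:42399181-42399581 to -0.017 and of chr16:33974180-33974580 to -0.073. Pairs up to 1000 bases apart held 1 fall, 6 rises and 0 pairs called on both sides at 2 h, and 0, 6 and 1 at 4 h, since there are fewer members. Total count scaling gave 9 falls at 4 h. Away from empty stretches the 4 h values were 13 rises, 0 pairs called on both sides and r of 0.349, and a refit of those pairs alone called 5 differences, where the fit of all pairs called 10 of them. Taking left and right regions from different libraries gave a lower r of 0.25 at 2 h and 0.329 at 4 h over all pairs, and 0.213 and 0.221 away from empty stretches. Leaving out 1 library gave 0 to 7 falls, 10 to 61 rises and 2 to 15 pairs called on both sides at 2 h, and 1 to 8, 9 to 61 and 0 to 15 at 4 h. It also gave 3 to 20 and 3 to 12 pairs with a difference, r of 0.186 to 0.492 and 0.293 to 0.546, and 0 to 1 calls for 4 h against 2 h. The lone library of a group is then assumed to vary like the others. Of 334 values for the 26 named regions under all settings, 278 kept direction and call, 54 lost the call and 2 reversed, and of 96 values for the 10 named differences 86 kept both and 10 lost the call. The low-count filter removed 0 regions and no windows of a pair overlapped, so those 2 alternatives changed nothing. The tally of named values includes the unfiltered fit and fits without a library of the other time, which could hardly move a log2 fold change. It leaves out DESeq2 values with no adjusted p, so it overstates how steady the named values were. Beyond the values given here and in the results above, the cause of these shifts was not tested.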

Other observations

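The pairs with the highest signal lie mostly beside empty stretches. By CPM summed over both regions they start at 61968821 on chromosome 7 (9334 CPM), 18517146 on chromosome 18 (1864 CPM) and 51579395 on chromosome 11 (1846 CPM). They are followed by 2 pairs of a group of 3 on chromosome 2, at 133033235 (1281 CPM) and 133034253 (1244 CPM), which is not beside such a stretch and in which 0 regions were called at either time. In DMSO the stronger region of a pair exceeded the weaker more than 3-fold in 9 of 67 pairs beside empty stretches and in 4 of 261 elsewhere.

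Of the 15 groups of 3 or more regions, 8 lie beside an empty stretch. The group of 5, on chromosome 16 from 46388355 to 46394421, had median log2 fold changes of 0.42 (2 h) and 0.44 (4 h), with 0 and 2 regions called. The group of 4, on chromosome 9 from 44875098 to 44880020, had 0.11 and 0.39 with 0 called. Among the groups elsewhere, the 3 regions on chromosome 16 from 54962456 to 54965398 had medians of -0.31 and -0.36 with 0 called. In the group on chromosome 6 from 30582194 to 30585184, 1 region rose at both times, chr6:30584784-30585184, with group means of 117 CPM for DMSO, 202 CPM for 2 h and 194 CPM for 4 h (n = 2 each, edgeR adjusted p = 0.000484 and 0.00224).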
